A study of Mus musculus with 73 samples.

Results

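Glycolysis splits glucose into pyruvate in the cytosol, and lactate dehydrogenase then reduces pyruvate to lactate and renews the NAD+ that the pathway uses up. Hexokinases trap glucose as its phosphate, the middle enzymes cut the sugar and rearrange the pieces, and the lower enzymes recover ATP. Macrophages are known to raise flux through this route when bacterial products or low oxygen activate them, through the transcription factor HIF-1, while resident alveolar macrophages are known to lean on oxidative metabolism. The genes described here are 10 enzymes of the route, chosen by name: the hexokinases Hk2 and Hk3, the glucose phosphate isomerase Gpi1, the aldolase Aldoa, the triose phosphate isomerase Tpi1, the dehydrogenase Gapdh, the kinase Pgk1, the mutase Pgam1, the enolase Eno1 and the lactate dehydrogenase Ldha. All 10 had a row among the 23994 genes of the expression table.

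The cells came from 1 Csf1r-GFP mouse of 10 weeks, in which a green fluorescent reporter is tied to Csf1r, a receptor gene of monocytes and macrophages. The left lung had been removed, and the right lobes were taken 7 days later. Cells sorted as CD45+, CSF1R-GFP+ and F4/80+ (Ly6G is named without a sign) were captured on a Fluidigm C1 chip, and 73 single cells were sequenced. They form 1 group from 1 mouse, with no unoperated lung beside them in the files used here, so cells are not replicates, the effect of surgery cannot be told apart from anything else the cells share, and no p-value is given.

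Levels are FPKM, fragments scaled to the length of the transcript and to the cell's total, and a gene is called detected in a cell at FPKM of 1 or more. The cells held 347003 to 3485940 mouse fragments (median 1408840) and 1044 to 3745 detected genes (median 2290). Ptprc, which encodes CD45, was detected in 69 cells, Csf1r in 65 and Emr1, which encodes F4/80, in 41. Clustering without the pathway genes gave 4 clusters. A cluster of 12 cells (16.4%) was alveolar-macrophage-like, led by Cd9, Ear2, Plet1, Car4 and Chil3. A cluster of 6 cells (8.22%) was interstitial-macrophage-like, led by C1qa, C1qb and C1qc. A cluster of 5 cells (6.85%) stayed unnamed and is called here the class II and cell cycle cluster, since H2-Aa, H2-Ab1, Cd74 and Rrm2 were among its leading genes. The remaining 50 cells (68.5%) were classical-monocyte-like, led by Plac8, Ly6c2, Hp and Ccr2, although they had been sorted as macrophages. That cluster was mixed, since single cells in it held up to 10 of 13 alveolar macrophage markers.

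The start regions of 5 of the enzymes are printed because these genes carry the comparisons that follow: Gapdh, Ldha and Tpi1 were higher in the alveolar-macrophage-like cells, Gpi1 was lower there, and Hk2 opens the pathway. Each sequence is a RefSeq window of 300 bases (GRCm38.p6) in the gene's own direction, 250 before the start and 50 from it on. Capitals mark the letters ACGTG or their reverse complement CACGT, searched on both strands, where adjoining matches can overlap as in CACGTG. These letters are a form of the core of the hypoxia response element. The core may also read GCGTG, which was not searched.
Hk2, chr6:82774405-82774704, minus strand: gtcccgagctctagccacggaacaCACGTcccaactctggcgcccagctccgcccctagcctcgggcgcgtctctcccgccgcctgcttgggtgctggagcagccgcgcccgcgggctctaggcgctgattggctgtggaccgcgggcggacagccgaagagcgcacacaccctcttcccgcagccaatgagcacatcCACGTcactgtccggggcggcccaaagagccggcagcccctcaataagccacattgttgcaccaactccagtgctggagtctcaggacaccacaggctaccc
Gpi1, chr7:34230287-34230586, minus strand: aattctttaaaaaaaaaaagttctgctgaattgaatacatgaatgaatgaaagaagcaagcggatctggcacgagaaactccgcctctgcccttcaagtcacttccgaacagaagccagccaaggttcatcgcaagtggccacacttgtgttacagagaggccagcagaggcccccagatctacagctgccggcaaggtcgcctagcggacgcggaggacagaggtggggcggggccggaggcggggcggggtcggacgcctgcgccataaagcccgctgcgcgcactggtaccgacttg
Tpi1, chr6:124814109-124814408, minus strand: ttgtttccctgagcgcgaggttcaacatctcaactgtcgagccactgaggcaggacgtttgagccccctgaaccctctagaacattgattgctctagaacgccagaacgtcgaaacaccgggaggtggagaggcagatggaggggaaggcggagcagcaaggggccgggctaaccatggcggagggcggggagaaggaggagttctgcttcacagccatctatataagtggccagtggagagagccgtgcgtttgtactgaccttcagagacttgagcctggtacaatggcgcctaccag
Gapdh, chr6:125165724-125166023, minus strand: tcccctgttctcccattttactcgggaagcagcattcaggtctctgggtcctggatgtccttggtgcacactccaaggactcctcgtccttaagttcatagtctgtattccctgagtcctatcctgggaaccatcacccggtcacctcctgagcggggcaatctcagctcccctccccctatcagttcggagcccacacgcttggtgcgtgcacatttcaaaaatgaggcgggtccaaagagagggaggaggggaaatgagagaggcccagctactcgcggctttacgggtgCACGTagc
Ldha, chr7:46845554-46845853, plus strand: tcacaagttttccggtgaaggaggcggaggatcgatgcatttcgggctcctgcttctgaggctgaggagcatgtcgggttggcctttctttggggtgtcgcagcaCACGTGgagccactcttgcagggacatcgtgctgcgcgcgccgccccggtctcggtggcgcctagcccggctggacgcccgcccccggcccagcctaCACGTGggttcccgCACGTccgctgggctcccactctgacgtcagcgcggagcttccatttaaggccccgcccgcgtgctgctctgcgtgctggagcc

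The printed Ldha window held 5 matches counted over both strands, starting at bases 106, 107, 203, 204 and 217, where each CACGTG counts as 2 overlapping matches. The Hk2 window held 2 and the Gapdh window 1, without overlap, while the Gpi1 and Tpi1 windows held none. Over all 10 enzymes, 7 genes and 8 of their 15 windows held the letters. A second Ldha window, chr7:46846832-46847131, held no match. Aldoa, Hk3, Pgam1 and Pgk1 were the others with a match, and Eno1 had none in its 3 windows. Of all 32851 windows in the table, 19.6% held the letters, and of 27025 genes 21.8% did so in any window. Among the 985 genes with a window that were detected in at least 50% of these cells, the share was 32.1%. Matches are a description of the letters and not of binding.

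None of the 10 enzymes was detected in all 73 cells, although every cell held at least 1 of them. Gapdh, which oxidises glyceraldehyde 3-phosphate and yields NADH, was the most widely detected, in 67 cells (91.8%, exact Clopper-Pearson 95% interval 82.96 to 96.9%). Aldoa, which cuts fructose bisphosphate into a pair of triose phosphates, followed in 64 cells (87.7%, 77.9 to 94.2%), and Gpi1, which turns glucose 6-phosphate into fructose 6-phosphate, in 58 (79.5%, 68.4 to 88.0%). Ldha was detected in 50 cells (68.5%), Eno1, which makes phosphoenolpyruvate, in 42 (57.5%) and Pgam1, which shifts the phosphate of phosphoglycerate, in 39 (53.4%). The entry enzyme Hk2 was detected in 35 cells (47.9%), Pgk1, which makes the first ATP of the lower pathway, in 33 (45.2%), and Tpi1, which interconverts the triose phosphates, in 25 (34.2%). Hk3, a hexokinase of myeloid cells, was the rarest, in 6 cells (8.22%, 3.08 to 17.04%). The intervals cover counting error only.

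All 10 genes are protein-coding in GENCODE M21 (GRCm38). Hk2 lies on chromosome 6 (chr6:82725025-82774454), as do Tpi1 (chr6:124810586-124814296) and Gapdh (chr6:125161715-125166467). Chromosome 7 carries Gpi1 (chr7:34201330-34230336), Ldha (chr7:46841475-46855627) and Aldoa (chr7:126795234-126800751, beside a longer record of the same symbol). Eno1 (chr4:150236721-150248879), Hk3 (chr13:55005985-55021385), Pgam1 (chr19:41911923-41918660) and Pgk1 (chrX:106187100-106203699) each lie alone on theirs. The deposited values are per gene, with no exon or transcript level.

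A cell held a median of 6 of the 10 transcripts, with 8 cells at 3 or fewer and 14 cells at 8 or more. Cell 30 alone held all 10. A gene listed at 0 in a cell is not shown to be absent from it, since amplification of 1 cell's RNA can miss a transcript: where Gapdh or Aldoa was detected it rested on a median of 661 and 741 fragments, whereas Tpi1 rested on 215 where it was detected and on 0 in the median cell.

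By mean FPKM over the 73 cells, Aldoa stood first at 348 ± 473 (SD over cells), followed by Gapdh at 280.4 ± 246 and Ldha at 146 ± 268. Aldoa and Gapdh could not be ordered cell by cell, as Aldoa was the higher in 34 cells and the lower in 38. Eno1 averaged 135 ± 219, Gpi1 80.5 ± 119.7, Pgk1 78.9 ± 159.9, Pgam1 66.9 ± 123, Tpi1 33.03 ± 76.3, Hk2 29.6 ± 55.8 and Hk3 3.53 ± 18.9 FPKM. The SD exceeded the mean for every enzyme but Gapdh, so neighbours in this order did not differ beyond their spread. Gapdh was higher than Ldha in 53 cells and lower in 16, the clearest step between neighbours among the 6 widely detected enzymes. The 10 values summed to a median of 1052 FPKM per cell, 0.247% of a cell's mouse FPKM, with 4.53 in cell 18 and 4333 in cell 87 as the extremes.

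**Figure D1:**
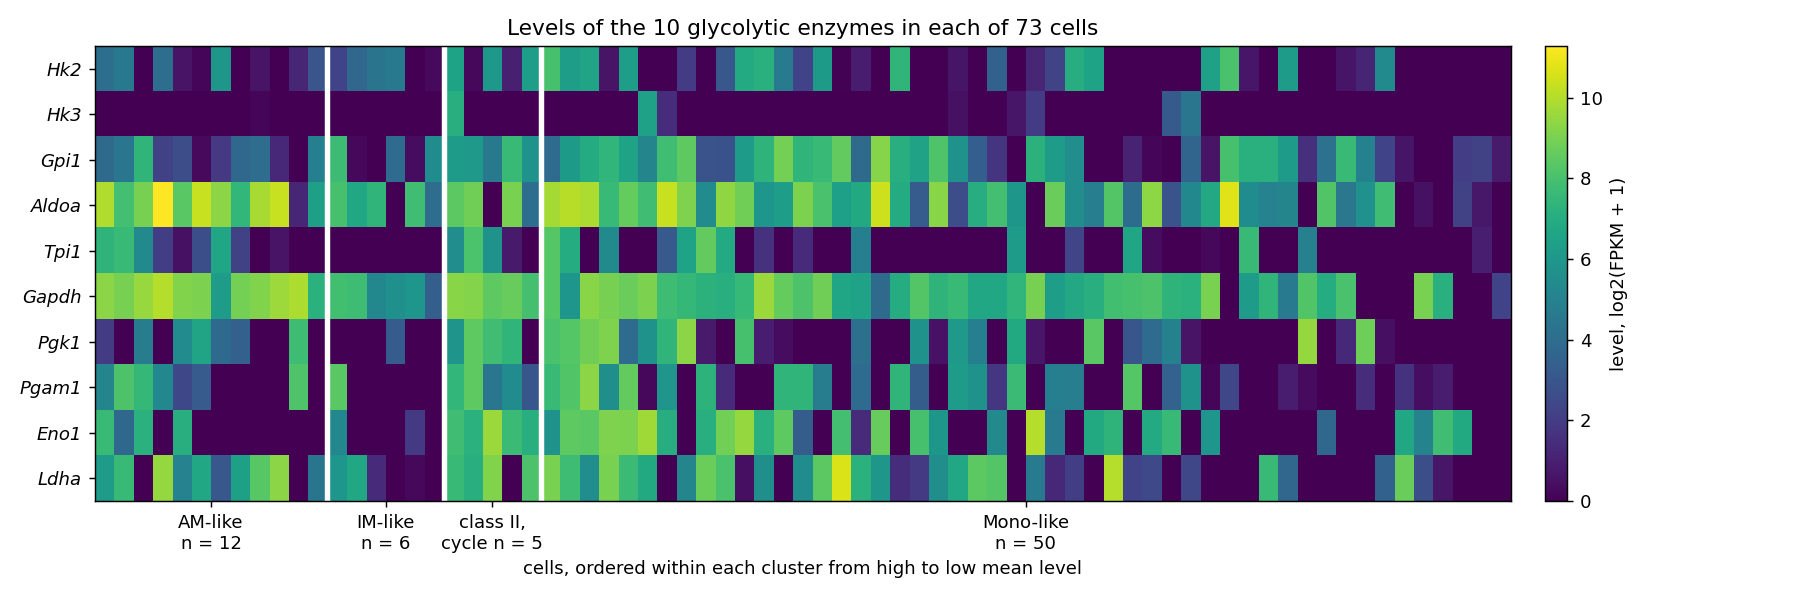
Each column is 1 of 73 cells and each row 1 of the 10 enzymes in pathway order, with colour giving the level as log2(FPKM + 1). Gapdh and Aldoa fill most columns, Tpi1 and Hk3 are dark in most, and no row is filled throughout.

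The pathway was also read step by step, counting any isozyme as enough for a step, except Eno1b, a near-identical copy of Eno1, which was left out. Of 11 steps, a cell held a median of 8 (1 to 11), and 4 cells held all 11. Pyruvate kinase, the last step to pyruvate, was detected in 63 cells (86.3%), each time with Pkm. Phosphofructokinase, the committed step, was detected in 36 cells (49.3%), 33 of them with Pfkp. Beside Tpi1 and Pgk1, this made it the least often detected step. Of the isozymes counted, those at the entry step added most, where Hk1 and Hk3 took the 35 cells with Hk2 to 46. Lactate dehydrogenase gained 2 cells, to 52, from Ldhb. Enolase gained 2 cells, to 44, from Eno3, which was detected in 6 cells. Eno1b was detected in 15 cells with Eno1 below 1 FPKM, so with it counted enolase would have gained more cells than the entry step.

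The entry step is served by several isozymes, and few cells held more than 1 of them. Hk2 was detected in 35 cells, Hk1 in 9 and Hk3 in 6, and 27 cells had none of the 3. Hk2 and Hk3 met in 2 cells and Hk1 and Hk2 in 2, and Hk1 and Hk3 in 0 of 73 cells, where 3 cells would be 4.11%, a limit on joint detection and not on expression. Hk3 stood at 136 FPKM in cell 30, 87.4 in cell 77, 20.2 in cell 10, 8.21 in cell 20, 2.99 in cell 39 and 1.70 in cell 53. All but cell 30 were classical-monocyte-like, and Hk3 reached detection in none (0 of 12) of the alveolar-macrophage-like cells, where 3 cells would be 25%. At these numbers a difference in Hk3 between clusters was not detectable. The 2 cells with both genes were unlike each other, since cell 30 held 92.97 FPKM of Hk2 beside its 136 of Hk3, and cell 39 held 1.34 FPKM of Hk2.

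In the alveolar-macrophage-like cells the enzymes went apart, with the sugar-cutting and oxidising steps higher and the first isomerase and the enolase lower than in classical-monocyte-like cells. The level over all 10, as the mean of log2(FPKM + 1), was 3.92 ± 0.99 in alveolar-macrophage-like cells and 3.57 ± 1.48 in classical-monocyte-like cells (SD, n = 12 and 50 cells), a difference of 0.36 that is smaller than either spread and was 0.21 without cell 19. Of the 12 cells, 7 lay above the classical-monocyte-like median. The median mouse to spike-in fragment ratio was 2.01 in alveolar-macrophage-like cells and 1.65 in classical-monocyte-like cells, and the median number of detected genes was 2739.5 in alveolar-macrophage-like cells and 2168.5 in classical-monocyte-like cells. The part of these in the result was not tested. Of the 9 enzymes detected in at least 8 cells, 4 were higher by 1 or more in mean log2(FPKM + 1), where 19.2% of 6151 such genes were, and 2 were lower, where 9.12% were. Together these were 6 of 9, where 28.3% of the tested genes differed in either direction. The median difference over the 9 enzymes was 0.42 and over the 6151 genes 0.13. With a pseudocount of 10 in place of 1, which gives low values less weight, Gapdh and Aldoa were still higher and Eno1 and Gpi1 still lower by 1 or more, while Ldha and Tpi1 were not, at 0.94 and 0.52.

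Gapdh spanned 74.9 to 1055 FPKM with a median of 568 in the alveolar-macrophage-like cells, against 0 to 759 with a median of 162 in classical-monocyte-like cells. All 12 cells held it, and although the ranges overlap the cluster's median lay above the classical-monocyte-like upper quartile of 294. The difference was 2.38 on the log2 scale, between 2.28 and 2.62 with any 1 of the 12 cells left out. Aldoa spanned 1.34 to 2489 FPKM with a median of 569.8 in the alveolar-macrophage-like cells, against 0 to 1682 with a median of 97.3 in the classical-monocyte-like cells. Its log2 difference was 2.36, and the single low cell was cell 36, in which Gapdh stood at 938 FPKM. High values of these enzymes therefore did not always fall in the same cell.

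Ldha had a median of 80.0 FPKM and a highest value of 729 in the alveolar-macrophage-like cells, against a median of 7.93 and a highest value of 1616 in classical-monocyte-like cells. Its log2 difference was 1.64. Of the alveolar-macrophage-like cells 10 of 12 held Ldha, against 33 of 50, while its mean FPKM was 185 ± 253 in the alveolar-macrophage-like cells and 142 ± 290.5 in the classical-monocyte-like cells. Tpi1 was held by 7 of the 12 alveolar-macrophage-like cells, at a mean of 43.1 ± 70.998 FPKM, against 15 of the 50 classical-monocyte-like cells, at 30.5 ± 77.8 FPKM. Its log2 difference of 1.27 was 0.84 without cell 17.

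Eno1 was held by 4 of 12 alveolar-macrophage-like cells and averaged 41.5 ± 74.1 FPKM, against 31 of 50 classical-monocyte-like cells and 157 ± 237 FPKM, a log2 difference of -2.23. Gpi1 was detected in 10 of 12 and 40 of 50 cells, nearly the same share, but at 22.5 ± 46.2 FPKM in alveolar-macrophage-like cells against 98.5 ± 135 in classical-monocyte-like cells. Its log2 difference was -1.54, and its highest value among the 12 cells was 167 FPKM in cell 55, against 597 among the 50. Pgk1, Pgam1 and Hk2 differed by less than 1, at -0.00, 0.42 and -0.35. For Pgk1 the 2 scales went apart, since its mean FPKM was 33.7 ± 63.7 in the alveolar-macrophage-like cells and 90.7 ± 181 in the classical-monocyte-like cells while the log2 means were 2.81 and 2.81.

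**Figure D2:**
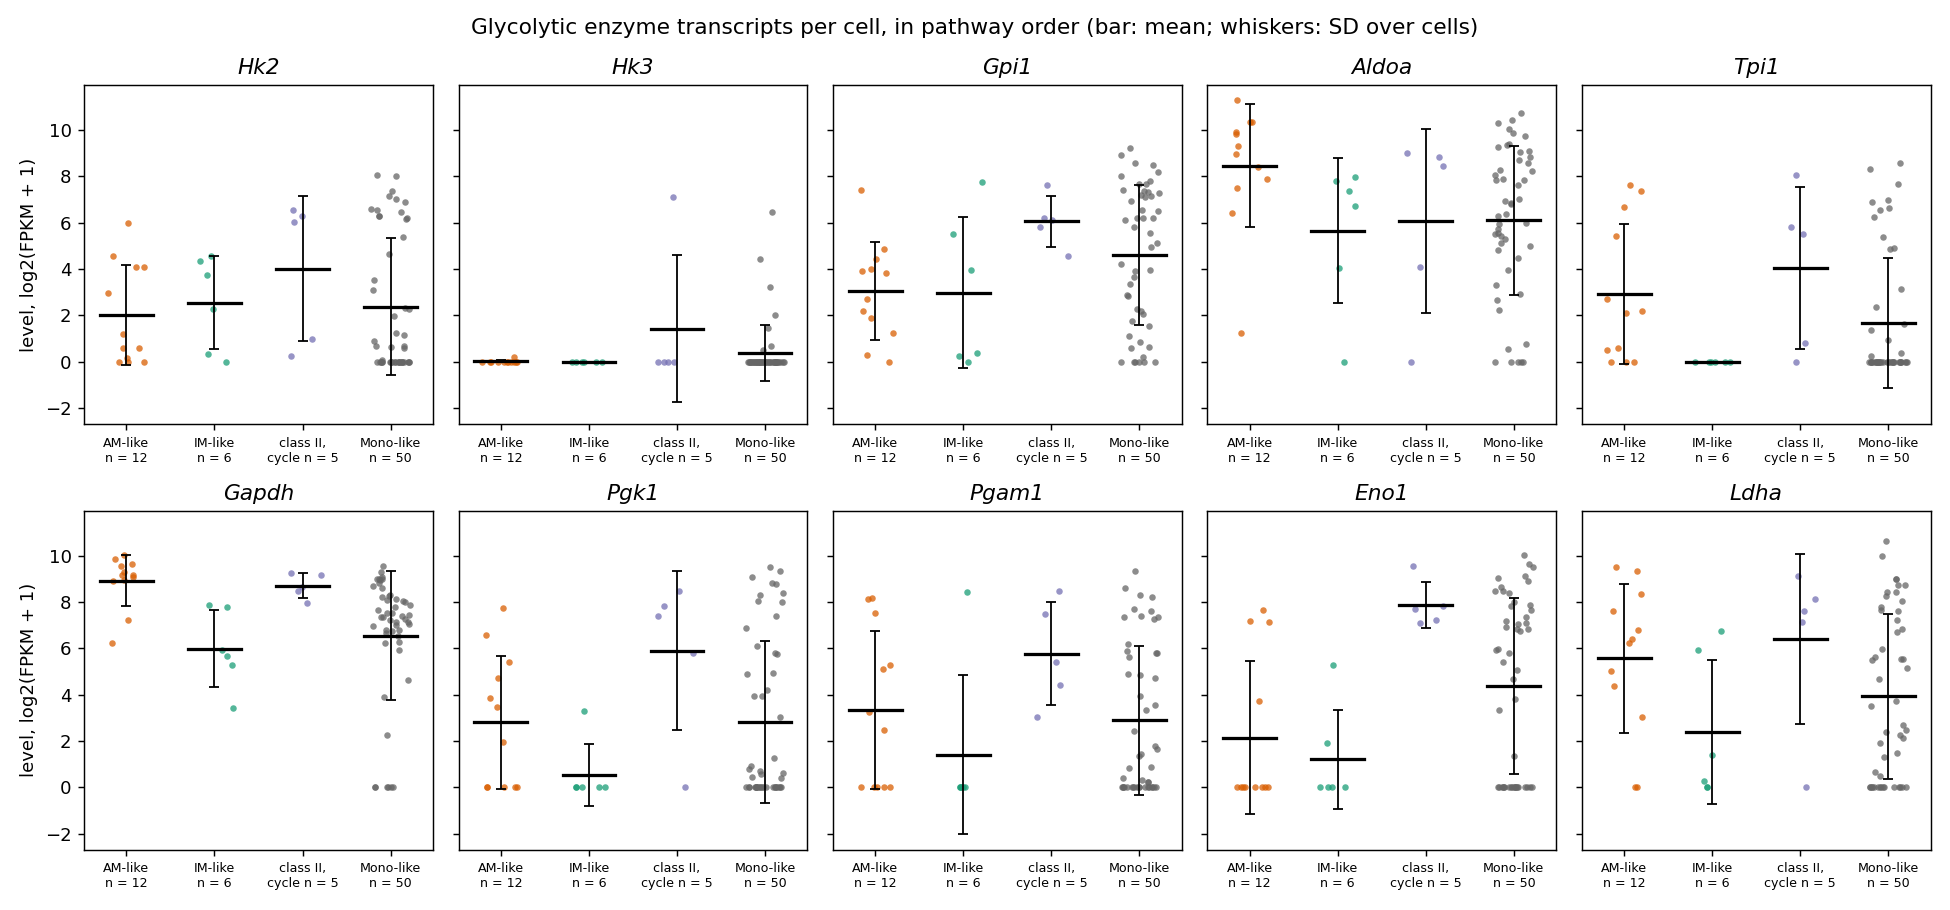
Each panel shows 1 enzyme in pathway order, each point 1 cell, the level as log2(FPKM + 1) on the vertical axis, and the bar and whiskers the mean and SD over the cells of a cluster. Gapdh and Aldoa sit high in the 12 alveolar-macrophage-like (AM-like) cells, Eno1 is at or near 0 in most of them, and Tpi1 is at 0 in all 6 interstitial-macrophage-like (IM-like) cells.

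Genes around the pathway also differed in both directions, in shares near those of all genes. Of 78 tested genes of the neighbouring lists, 16 (20.51%) were higher and 9 (11.54%) lower in the alveolar-macrophage-like cells, beside 19.2% and 9.12% of all tested genes. Pkm, the pyruvate kinase gene that follows Eno1, averaged 53.9 ± 59.9 FPKM in alveolar-macrophage-like cells and 241 ± 267 FPKM in classical-monocyte-like cells, a log2 difference of -2.17. It was the only one of the 4 tested genes among the other glycolytic enzymes to differ by 1 or more. The hexose transporter gene Slc2a6 was listed at 0 in all 12 alveolar-macrophage-like cells but held by 14 of 50 classical-monocyte-like cells, and the transporter Slc2a1 was detected in 1 of 12 and 13 of 50. In the pentose phosphate branch, which leaves glycolysis at glucose 6-phosphate, the first enzymes G6pdx and Pgls were lower, at -1.504 and -1.18 on the log2 scale, and Rpia was higher at 1.61, of 7 tested.

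In the citrate cycle, which takes up the carbon that is not made into lactate, 7 of 24 tested genes were higher and 0 lower in the alveolar-macrophage-like cells. Among them were Cs, Idh1 and Mdh1, with Suclg1 at 2.99, the subunit of the enzyme that makes GTP or ATP from succinyl-CoA, and Mdh2 at 1.05. At 7 of 24 the count is above the 19.2% of all genes, in cells from 1 mouse. Of 8 tested hypoxia targets outside glycolysis, the mitophagy receptor gene Bnip3l was higher at 2.83 and Ndrg1 lower at -1.66. Of 9 tested regulators, Hif1a among them at 0.53, none differed by 1 or more.

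The 6 interstitial-macrophage-like cells were the lowest in these enzymes. Their level was 2.27 ± 1.18, against 3.57 ± 1.48 in classical-monocyte-like cells, a difference of -1.30, and they held a median of 4 enzymes. Of the 9 tested enzymes, 6 were lower by 1 or more, where 16.2% of all tested genes were, and 0 were higher, where 13.4% were. With a pseudocount of 10 the count was 2, Eno1 and Pgk1, where 5.14% of all genes were lower. Eno1 was detected in 2 of 6 cells and differed by -3.18. Pgk1 was detected in 1 of 6 cells, at 8.70 FPKM in cell 94, and differed by -2.27. Tpi1 was listed at 0 in all 6 cells, of which 3 would be 50%. Gpi1, Ldha and Pgam1 differed by -1.62, -1.53 and -1.502. Pgam1 was detected in 1 of 6 cells, and its mean FPKM was little lower, at 56.8 ± 139 against 62.1 ± 124 in classical-monocyte-like cells. The 6 enzymes stayed lower by 1 or more when any 1 of the 6 cells was left out, though the differences of Gpi1, Ldha and Pgam1 moved in size. Without cell 50, Gpi1 differed by -2.58 and Pgam1 by -2.90, and without cell 65 Gpi1 differed by -1.03. Ldha differed by -2.40 without cell 32. Gapdh was kept in all 6 cells, from 9.73 to 232 FPKM with a median of 54.9, against a median of 162 in classical-monocyte-like cells, and differed by -0.56, while Aldoa differed by -0.43 and Hk2 by 0.17.

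The cluster was not even. Cell 50 held 7 enzymes, with Pgam1 at 341, Aldoa at 252, Gapdh at 232 and Gpi1 at 212 FPKM, and a level of 4.55, whereas the other 5 cells lay between 1.33 and 2.53. Pkm also was lower in this cluster, at 13.96 ± 18.4 FPKM against 241 ± 267 in classical-monocyte-like cells, and Pfkp was detected in 0 of 6 cells. The 6 cells had a median mouse to spike-in fragment ratio of 1.68, against 1.65 in the classical-monocyte-like cells. Their median number of detected genes was lower, at 1948.5 against 2168.5, and over all tested genes the median difference was -0.21. Beside the 26 classical-monocyte-like cells within their range of that fragment ratio, whose level was 3.15 ± 1.09, the difference was -0.88. The part of RNA content and of detected genes in the result was not tested.

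The class II and cell cycle cluster was the highest. Its 5 cells had a level of 5.63 ± 1.19, against 3.57 ± 1.48 in classical-monocyte-like cells, a difference of 2.06, and all 5 lay above the classical-monocyte-like median. Of the 9 tested enzymes, 8 were higher by 1 or more, where 31% of all tested genes were, and 0 were lower, where 5.28% were. Eno1 stood at 147, 228, 208, 756 and 136 FPKM in cells 25, 30, 37, 42 and 84, and differed by 3.50. Every one of the 5 was above the classical-monocyte-like median of 47.7 and below its highest value of 1056. Pgk1 stood at 361, 55.4, 167 and 225 FPKM in cells 25, 30, 37 and 42 and was listed at 0 in cell 84. Gapdh stood at 581, 613, 400.3, 359 and 251 FPKM in the same 5 cells, with an SD of 153 about its mean of 441, the most even of the enzymes.

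Pgam1 ranged from 7.09 FPKM in cell 84 to 354 in cell 25 and was held by all 5 cells, as was Gpi1, from 22.3 in cell 42 to 195 in cell 37. The log2 differences were 3.09 for Pgk1, 2.86 for Pgam1, 2.48 for Ldha, 2.38 for Tpi1, 2.16 for Gapdh, 1.65 for Hk2 and 1.46 for Gpi1, and each stayed at 1 or more when any 1 of the 5 cells was left out. Without single cells the values moved by over 1.5 times for Ldha, at 4.08 without cell 37, for Tpi1, at 1.37 without cell 25, and for Hk2, at 1.01 without cell 30 and 2.59 without cell 25. With a pseudocount of 10, 6 enzymes were higher by 1 or more, where 12.3% of all genes were, and Gpi1 and Hk2 were not among them. Hk3, detected in too few cells to be tested, differed by 1.05 and, without cell 30, by -0.37. Aldoa was the exception at -0.02, being listed at 0 in cell 42 and at 16.01 FPKM in cell 84, against 457, 344 and 521 FPKM in cells 25, 30 and 37, and at 1.503 without cell 42. Gpi1 was higher on the log2 scale only, since its mean FPKM was 82.6 ± 66.1 in this cluster and 98.5 ± 135 in the classical-monocyte-like cells. Outside the 10, Pfkp was detected in all 5 cells at 86.3 ± 82.3 FPKM, against 22 of 50 classical-monocyte-like cells at 15.1 ± 42.4 FPKM, and differed by 4.39.

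The median RNA content was also highest in this cluster, although cells 42 and 84, at 2.099 and 2.95, lay within the range of other clusters. The cluster's median mouse to spike-in fragment ratio was 4.20, against 1.65 in the classical-monocyte-like cells, with medians of 3219620 and 1392930 mouse fragments and of 3238 and 2168.5 detected genes. Over all tested genes the median difference was 0.39. Beside the 17 classical-monocyte-like cells within the same range of the ratio, whose level was 4.84 ± 1.20, the difference was 0.78, and beside the 19 within the same range of fragments, whose level was 4.33 ± 1.37, it was 1.30. Of 14 genes of the G2/M phase of the cell cycle, 12 were detected in cell 37, 11 in cell 84, 9 in cell 30, 4 in cell 25 and 0 in cell 42. The levels were 4.76 in cell 37, 4.24 in cell 84, 7.18 in cell 30, 6.38 in cell 25 and 5.58 in cell 42. Cell 30, with the highest level of all 73 at 7.18, also held 5 of 9 neutrophil-lineage markers, with S100a8 at 3752, Elane at 257, S100a9 at 26.5, Mpo at 3.15 and Cxcr2, which 62 of the 73 cells held, at 1.70 FPKM, beside Ly6c2 at 1816, Emr1 at 133 and Csf1r at 21.1. S100a9, Elane and Mpo were each detected in 1 of the 73 cells, which was cell 30. The markers Retnlg, Ngp, Camp and Ltf were detected in 0 of the 73 cells, so their 0 in cell 30 does not set it apart. Without cell 30 and 3 classical-monocyte-like cells with endothelial markers, the cluster's difference was 1.61, and the part of these markers, of cell cycle genes and of RNA content in the result was not tested.

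Across all cells the level of the 10 enzymes went with the amount of RNA recovered. Its Spearman correlation was 0.70 with the mouse to spike-in fragment ratio, 0.67 with the number of detected genes and 0.52 with mouse fragments (n = 73 cells of 1 mouse, which share library preparation and depth). Within the 50 classical-monocyte-like cells the first of these was 0.71. The mean of all 1285 genes detected in at least 50% of cells had a correlation of 0.83 with the same ratio, and the part of RNA content in the enzymes' level was not tested. Single enzymes had lower values, from 0.48 for Ldha, 0.46 for Aldoa and 0.46 for Gapdh down to 0.20 for Tpi1 and -0.00 for Hk3, against a median of 0.19 over the single genes.

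**Figure D3:**
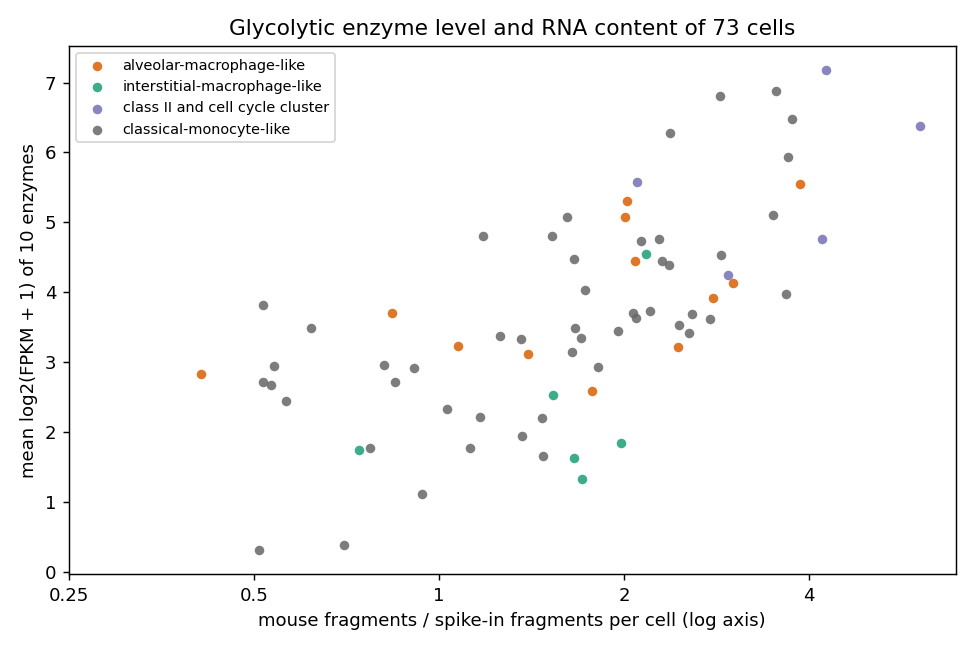
Each point is 1 of 73 cells, with the mouse to spike-in fragment ratio on a log axis and the mean log2(FPKM + 1) of the 10 enzymes on the vertical axis, coloured by cluster. The level is higher where the ratio is higher (Spearman correlation 0.70). Cells 25, 30 and 37 of the class II and cell cycle cluster lie at the right, and its cells 42 and 84 lie among the other clusters.

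The enzymes went together only weakly from cell to cell. Over the 15 pairs of the 6 enzymes detected in at least 50% of cells, the median Spearman correlation was 0.22, from 0.06 to 0.36, where the median over 824970 pairs of the 1285 genes was 0.06. Gapdh and Pgam1 had the highest value of all 45 pairs, 0.36, and Hk2 and Hk3 the lowest, -0.18. Tpi1, Gapdh, Pgk1 and Pgam1, which sit next to one another in the pathway, had 0.30 to 0.36 in each of their 6 pairs. Gpi1 had 0.06 with Gapdh and 0.07 with Pgk1, and its highest value, 0.27, with Aldoa. RNA content goes with each of these genes but Hk3, as above, and its part in their correlations was not tested.

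**Figure D4:**
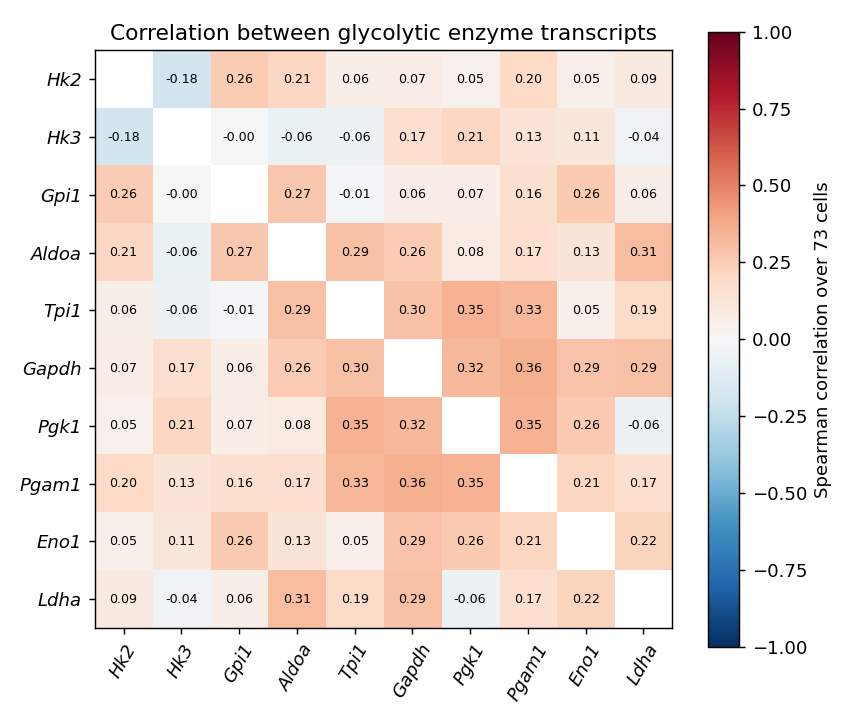
The matrix gives the Spearman correlation over 73 cells between each pair of enzymes, in pathway order, with red for positive and blue for negative values. The values run from -0.18 for Hk2 with Hk3 to 0.36 for Gapdh with Pgam1.

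The genes whose levels over the 73 cells were most like the enzymes' mean were Eno1b at a Spearman correlation of 0.58, Actg1, a cytoskeletal actin, at 0.58, Capg, an actin-capping protein, at 0.57, Ubl5 at 0.56, Anxa2 at 0.55, Usmg5 at 0.54, Gm12070 at 0.53, Tomm6os at 0.52, Plp2 at 0.51 and Cox17, a copper chaperone of cytochrome oxidase, at 0.51. The median over the 1279 other genes detected in at least 50% of cells was 0.17. The activation genes Il1b and Tnf had 0.13 and 0.27, and Chil3, a leading gene of the alveolar-macrophage-like cluster, had 0.12.

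The first and seventh of these genes are near-identical copies of enzymes among the 10. Gm12070 (chr11:26786633-26787634, plus strand, a processed pseudogene) matches the Gapdh transcript at 99.9% over 1002 bases. Its level was a median 5.50% of that of Gapdh in the 65 cells with Gapdh at 10 FPKM or more, with a correlation of 0.96. Eno1b, an intronless copy of Eno1, matches it at 99.5% over 1736 bases and stood at a median 7.66% of Eno1 in 39 cells, with a correlation of 0.90. It was detected in 57 cells, in 15 of which Eno1 was below 1 FPKM. Reads that fit both copies cannot be told apart, so the detection of Eno1 is uncertain: with the copies' rows added it was detected in 78.1% of cells in place of 57.5%. Eno1b was lower by 0.99 on the log2 scale in alveolar-macrophage-like cells, at 7.56 ± 14.8 FPKM, against 13.5 ± 17.99 FPKM in classical-monocyte-like cells. In cells thinned to the same number of fragments, Eno1b was detected in 8 of 12 and 40 of 50 of these cells. With the copies' rows added, the log2 difference of Eno1 between these clusters was -2.19, in place of -2.23.

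Gapdh and Pgk1 are in common use as reference genes, and here neither was even. The coefficient of variation of FPKM over cells was 0.878 for Gapdh and 2.03 for Pgk1, against 0.574 for B2m, 0.608 for Eef1a1, 0.661 for Actb and 0.759 for Ppia, each detected in all 73 cells. Between the alveolar-macrophage-like and the classical-monocyte-like cells, Gapdh differed by 2.38 and Hprt by 3.10 on the log2 scale. Actb differed by 0.56, Eef1a1 by -0.48 and Pgk1 by -0.00 in the same comparison, while B2m differed by -1.11 and Rplp0 by -1.32.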

How the data were processed

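Libraries of single cells, captured on a Fluidigm C1 chip, were made with SMARTer amplification and Nextera XT, per the labels' protocols. Build mm10 was used with TopHat2 2.1.0, Cuffnorm, Cufflinks 2.2.1 and CASAVA 1.8, per the submitters' processing notes, and the annotation was not given in the sources used here. From these the authors deposited FPKM values per gene and cell. They also deposited a count table whose values are a signal, fragment counts divided by a factor per cell. Of 99946 low values, 99.6% lay within 0.1 of a whole multiple of their cell's step, and fragments were estimated by dividing by it. All 73 cells were used, 0 columns were left over, and no doublet caller was run, since each chip site is meant to hold 1 cell.

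The 10 genes and the pathway and marker lists were chosen with earlier results of these data known. Clusters came from 1000 variable genes without the pathway genes, log2(FPKM + 1) scaled per gene, 10 principal components and Ward clustering cut by silhouette into 4 (scikit-learn 1.9.0). A cluster was named from at least 3 markers among its 10 leading genes. Genes were compared if detected in at least 8 cells, a call was a difference of 1 or more in mean log2(FPKM + 1), and such differences understate changes of low genes. The calculation was tested on simulated data. With 1 mouse there are no replicates and no p-values. Near-identical copies were sought with blastn 2.17.0 in GENCODE M21 transcripts, at 95% identity over 200 bases. Genes named are the 10 enzymes, listed pathway genes detected in at least 50% of cells or called, copies of the enzymes, the 10 genes most like their mean, and cluster markers. Pfkp, Slc2a1, Hif1a, Eno3 and Hk1 are named from the lists after their values were seen. Alternatives were other pseudocounts, rescaled FPKM, fragments scaled to each cell's total, thinned cells, other detection thresholds, other clusterings, and cells left out.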

Additional observations from a re-analysis of the deposited data

How the results depend on the processing

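The median level of the 10 enzymes over all cells was 3.54 as reported and 5.13 with a pseudocount of 10, a change set by the larger constant. The difference between the alveolar-macrophage-like and classical-monocyte-like cells stayed positive under the 10 alternatives, in 2 of which (2000 variable genes and 2 clusters, the same split) the 61 other cells stood in for the classical-monocyte-like ones, from 0.22 with a pseudocount of 10 to 0.53 with a pseudocount of 0.1, and from 0.21 to 0.48 with 1 alveolar-macrophage-like cell left out. The 6 enzymes differing by 1 or more there were 4 with a pseudocount of 10, 5 without cell 17, where Tpi1 was 0.84, and 6 under the other pseudocount, scalings, filters and clusterings run. With 1 cell left out, the difference of the interstitial-macrophage-like cells ran from -1.75 to -1.11, and that of the class II and cell cycle cluster from 1.67 to 2.41. The median correlation between enzymes ran from 0.19 in fragments scaled to each cell's total to 0.22. Detection shares moved with the threshold for Ldha, Eno1, Pgam1, Gpi1 and Hk2, for Hk2 to 35.6% at FPKM of 10 and 64.4% at any value above 0. Leaving out single cells of the classical-monocyte-like cluster was not run. No paired analysis was possible because all cells belong to 1 group from 1 mouse and their numbers pair nothing. With few cells in 3 of the clusters, depth and amplification of single cells limit what zeros mean, and differences within the clusters' SD are descriptions of these cells.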

Other observations

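Genes of lactate export and glucose uptake were detected in some of these cells. Bsg, the chaperone of the monocarboxylate transporters, was detected in 37 of 73 cells, at 42.4 ± 89.8 FPKM, and Slc16a3, an exporter of lactate, in 12 cells at 4.65 ± 24.7 FPKM. In the class II and cell cycle cluster Bsg was detected in 4 of 5 cells at 109 ± 123 FPKM, against 23 of 50 classical-monocyte-like cells at 44.97 ± 98.03 FPKM. The glucose transporter Slc2a3 was detected in 0 of 73 cells, where 3 cells would be 4.11%. In the pentose phosphate branch Taldo1, the transaldolase, was detected in 68 cells, beside 67 for Gapdh, and Pgd in 62. Taldo1 was lower by 1 or more in the interstitial-macrophage-like cells, at 44.7 ± 90.4 FPKM, against 322 ± 280 FPKM in classical-monocyte-like cells, a log2 difference of -4.07.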
